A study of Mus musculus with 20 samples.

Results

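The G2/M and mitosis genes described here are 54 genes chosen by symbol, namely mitotic cyclins and their regulators and genes of the spindle, the kinetochore, cytokinesis and chromosome condensation. Of these, 53 matched a probe set among the 20239 named genes of the array, and 1, Ccnb1, was not analysed here. The genes were listed with earlier results of these data known, so the share that rose is not that of a list chosen blind. A dividing cell leaves G2 when cyclin B and cyclin A switch on the kinase Cdk1. The spindle is then built, the checkpoint holds the cell until every kinetochore is attached, and the anaphase-promoting complex starts chromosome separation and exit. In the embryonic forebrain these genes are transcribed in cycling radial glia along the ventricle and in intermediate progenitors, and are turned off as neurons are formed.

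Expression was measured as log2 values in the forebrain of 20 mouse embryos at embryonic day 15, with 1 embryo per Affymetrix Mouse Gene ST 1.0 array. A distal piece of chromosome 16 is present in an extra copy in Ts1Cje mice, which are used as a model of Down syndrome. Embryos came from Ts1Cje males mated to C57Bl/6J females, whose breeding pairs ate purified powdered chow alone (plain chow) or the same chow with 2 g of the plant flavone apigenin per kg, from mating onward. Wild-type (WT) and Ts1Cje embryos were taken from both chows, which makes 4 groups of 5 embryos, each of 3 males and 2 females per the design text.

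The labels do not name the litters. The p-values therefore measure only how much these embryos vary, and some may have had the same dam. Sample titles number the embryos from 87 upward for plain chow and between 1 and 59 for apigenin, and effects of chow and of embryo number cannot be told apart. The arrays were alike in scale, with medians of 7.84 to 7.88, and pairs of arrays correlated at 0.991 to 0.997 across genes. The 59 measured genes of the trisomic segment averaged 8.50 to 8.55 in the WT embryos and 8.78 to 8.81 in the Ts1Cje embryos, which fits the genotype labels of all 20. The 8 measured forebrain markers averaged 9.97 to 10.21 in the plain-chow embryos and 10.23 to 10.34 in the apigenin embryos, and the 7 hindbrain markers 6.69 to 7.03 over both chows, although levels of different probe sets are only roughly comparable. Precision is limited by the 5 arrays of each group.

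Apigenin embryos had more RNA of nearly every G2/M and mitosis gene, in both genotypes. In WT, 51 of 53 rose, 0 fell and 2 did not pass (limma, Benjamini-Hochberg adjusted p under 0.05 over 20239 genes), where 6.46% of all genes rose. In Ts1Cje, 51 rose, 0 fell and 2 did not pass, where 8.09% of all genes rose. The median difference over the 53 genes was 0.35 on the log2 scale in WT, or 1.27-fold, and 0.38 in Ts1Cje, or 1.3-fold, while the medians of all genes were -0.01 and 0.01. Differences were small and even, from 0.05 to 0.51 in WT and from 0.06 to 0.57 in Ts1Cje. In all, 50 genes passed in both genotypes and 52 in at least 1. Because whole forebrain was used, more dividing cells and more RNA per dividing cell cannot be told apart.

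The values themselves separated by chow. Every apigenin embryo lay above every plain-chow embryo for 44 of the 53 genes in WT, where 5.16% of all genes did so, and for 45 in Ts1Cje, where 7.47% did. Averaged over the 53 genes, the level was 8.54, 8.77, 8.73, 8.73 and 8.74 in the WT plain-chow embryos and 8.56, 8.76, 8.82, 8.71 and 8.53 in the Ts1Cje plain-chow embryos. It was 8.95, 9.05, 9.11, 8.99 and 9.10 in WT on apigenin and 9.12, 8.98, 9.13, 9.00 and 9.02 in Ts1Cje on apigenin. The highest plain-chow embryo, at 8.82, was thus below the lowest apigenin embryo, at 8.95.

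**Figure D1:**
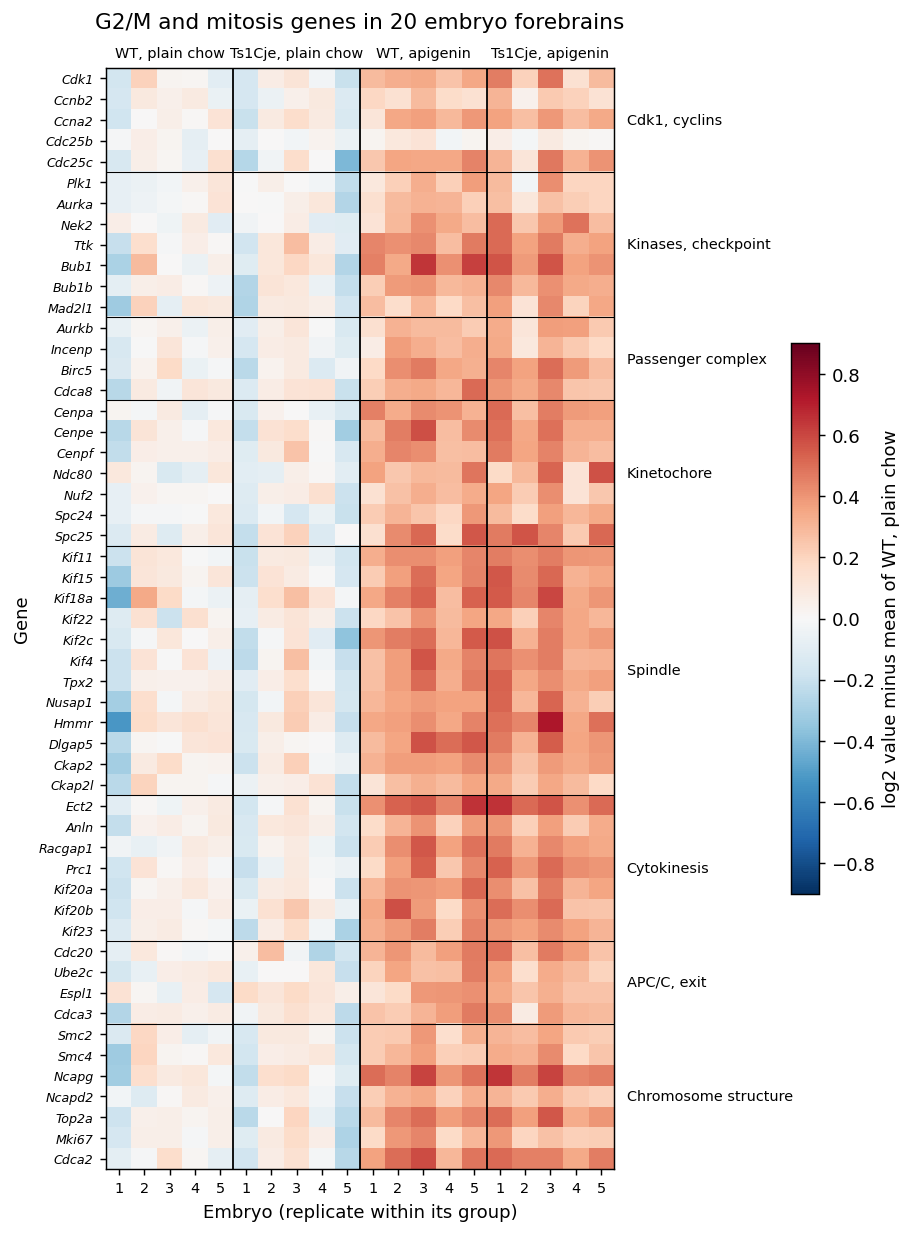
Each row is a gene, ordered by function, and each column an embryo; colour gives the log2 value minus that gene's mean in WT on plain chow. The 10 apigenin columns are red for nearly all 53 genes, and Cdc25b is the palest row, with differences of 0.05 in WT and 0.06 in Ts1Cje.

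Within the plain-chow groups 3 embryos stood apart. WT replicate 1 was the lowest of its group for 45 of the 53 genes. In Ts1Cje, replicate 5 was the lowest for 31 genes and replicate 1 for 21, and replicate 3 was the highest for 36. These 3 embryos averaged 8.53 to 8.56, the other 7 on plain chow 8.71 to 8.82. All 3 had high Y-linked signal (9.00 to 9.49 in the embryos with high signal, 4.53 to 4.89 in the others), as did 3 embryos of every group. They also had the lowest mean levels of the forebrain markers (10.08 in the WT embryo, 10.07 and 9.97 in Ts1Cje replicates 1 and 5) and of the G1/S genes (8.39, 8.42 and 8.39) of all 20 embryos. Their hindbrain marker levels were 7.02, 6.90 and 7.03, and their Hbb-y values 6.78, 6.53 and 6.32. The part of these in the low mitotic values was not tested. Without these 3 embryos, 49 genes rose in WT, with a median of 0.30, and 42 in Ts1Cje, with a median of 0.28, where 4.86% and 4.4% of all genes rose; this repeat was chosen after the values were seen.

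Promoters are shown because these genes moved together and because many mitotic genes are known to be held back outside G2 by a repressor complex that binds the cell cycle homology region (CHR), while CCAAT boxes bind the activator NF-Y. The RefSeq promoter table (build GRCm38.p6, 250 bases before to 50 after the start) matched 43 of the 53 genes. The CHR letters TTTGAA, on either strand, were in 34 of these 43 (79.1%), against 20.2% of all 27025 genes in the table, 40% of 80 other G2/M genes and 16.2% of 37 G1/S genes. Its other form, TTTAAA, was in 8. CCAAT was in 33 (76.7%), against 41.1% of all, and the E2F letters TTGGCGC or TTCCCGC in 7 (16.3%), against 7.79% of all and 54.1% of the G1/S genes. In the 250 bases before the start alone, TTTGAA was in 18 (41.9%), against 18.3% of all and 28.8% of the other G2/M genes. Many matches thus end after the start. CCAAT read backwards, ATTGG, can share letters with TTGGCGC. These matches describe letters only, and binding was not measured.

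The 34 genes with TTTGAA had median differences of 0.35 in WT and 0.36 in Ts1Cje, and the 9 without it 0.35 and 0.38. In WT 34 of the 34 and 7 of the 9 rose, and in Ts1Cje 33 and 8. No test of this difference was made. The 6 promoters below are the 250 bases before the start, 5′ to 3′ on the gene's strand, with CHR, CCAAT and E2F letters in capitals. Cdk1 (chr10:69352913-69353162, minus strand), Cdc20 (chr4:118437344-118437593, minus strand), Ube2c (chr2:164769679-164769928, plus strand) and Top2a (chr11:99024190-99024439, minus strand) rose in both genotypes and hold both a CHR and a CCAAT match. Cdc25b (chr2:131186698-131186947, plus strand) missed the threshold in both genotypes, and Mad2l1 (chr6:66534971-66535220, plus strand) missed it in WT and rose in Ts1Cje.
Cdk1: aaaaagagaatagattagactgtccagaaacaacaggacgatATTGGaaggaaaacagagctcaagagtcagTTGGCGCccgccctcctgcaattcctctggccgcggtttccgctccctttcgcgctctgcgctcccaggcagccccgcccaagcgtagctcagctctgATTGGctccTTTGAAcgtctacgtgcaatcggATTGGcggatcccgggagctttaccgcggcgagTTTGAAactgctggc
Cdc20: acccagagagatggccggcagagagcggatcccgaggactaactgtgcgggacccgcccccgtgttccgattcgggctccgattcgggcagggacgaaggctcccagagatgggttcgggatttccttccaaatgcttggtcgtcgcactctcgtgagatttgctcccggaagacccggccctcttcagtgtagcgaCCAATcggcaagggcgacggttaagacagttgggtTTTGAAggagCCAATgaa
Ube2c: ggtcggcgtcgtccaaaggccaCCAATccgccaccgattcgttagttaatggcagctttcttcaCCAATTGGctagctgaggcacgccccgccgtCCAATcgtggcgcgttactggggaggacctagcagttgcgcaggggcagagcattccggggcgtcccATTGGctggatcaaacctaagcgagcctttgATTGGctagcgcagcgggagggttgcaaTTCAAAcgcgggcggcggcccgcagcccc
Top2a: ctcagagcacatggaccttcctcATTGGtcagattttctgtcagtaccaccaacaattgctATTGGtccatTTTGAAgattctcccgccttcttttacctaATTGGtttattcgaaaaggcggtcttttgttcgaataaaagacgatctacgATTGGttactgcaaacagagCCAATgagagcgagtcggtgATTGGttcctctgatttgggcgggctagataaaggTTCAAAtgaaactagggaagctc
Cdc25b: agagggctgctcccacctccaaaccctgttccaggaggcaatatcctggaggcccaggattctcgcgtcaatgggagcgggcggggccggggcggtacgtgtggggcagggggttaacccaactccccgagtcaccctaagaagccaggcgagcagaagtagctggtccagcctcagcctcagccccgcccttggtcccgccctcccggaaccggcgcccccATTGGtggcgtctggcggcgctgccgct
Mad2l1: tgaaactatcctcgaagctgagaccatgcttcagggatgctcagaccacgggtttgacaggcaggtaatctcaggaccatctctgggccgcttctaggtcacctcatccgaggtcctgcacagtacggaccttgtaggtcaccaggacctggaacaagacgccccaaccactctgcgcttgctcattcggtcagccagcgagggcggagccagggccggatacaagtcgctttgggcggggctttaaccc
The CHR match nearest the start ended 9 bases before it in Cdk1, 12 in Cdc20, 23 in Ube2c and 17 in Top2a. Top2a and Ube2c each held 6 CCAAT matches in this window, of which a pair in Ube2c overlap. Cdc25b held 1 CCAAT match and 0 CHR matches, and Mad2l1 held 0 of both, also in the 50 bases after the start. Genes not printed here went the other way. Espl1, which missed the threshold in Ts1Cje, held 1 CCAAT match and 1 CHR match that ended 21 bases before the start. Nusap1 and Nuf2, which rose in both genotypes, held 0 of both, also in the 50 bases after the start.

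Of the 5 measured genes that set mitotic entry, 4 rose in each genotype, with a median over the 5 of 0.30 in WT and 0.33 in Ts1Cje. Cdk1, the kinase that drives mitosis, read 8.41, 8.78, 8.60, 8.59 and 8.48 in WT on plain chow and 8.86, 8.90, 8.91, 8.83 and 8.92 on apigenin. In Ts1Cje it read 8.42, 8.64, 8.69, 8.55 and 8.37, against 9.03, 8.78, 9.06, 8.71 and 8.86. The chow groups did not overlap in either genotype, and the differences were 0.31 ± 0.08 (log2, SE, n = 5 per group, limma adjusted p = 0.00971) and 0.35 ± 0.08 (limma adjusted p = 0.00309). Ccna2, cyclin A2, which acts in S phase and G2, rose by 0.30 ± 0.07 in WT and 0.33 ± 0.07 in Ts1Cje. Ccnb2, a B-type cyclin, had smaller differences of 0.19 ± 0.06 (limma adjusted p = 0.0464) and 0.22 ± 0.06 (0.0132).

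The 2 Cdc25 phosphatases, which remove the brake from Cdk1, gave different values. Cdc25c rose by 0.35 ± 0.09 in WT (limma adjusted p = 0.0112) and 0.43 ± 0.09 in Ts1Cje (0.00177). Cdc25b, which is expressed in cortical progenitors, was the gene that passed in neither genotype, at 0.05 ± 0.04 (limma adjusted p = 0.514) and 0.06 ± 0.04 (0.343). Its values in WT were 8.21, 8.28, 8.24, 8.14 and 8.22 on plain chow, against 8.24, 8.31, 8.34, 8.19 and 8.24 on apigenin, which overlap throughout. The Ts1Cje values were 8.14, 8.22, 8.19, 8.25 and 8.16, against 8.28, 8.20, 8.30, 8.24 and 8.23. The difference between Cdc25b and Cdc25c was not tested.

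Among the 7 mitotic kinases and checkpoint genes, 6 rose in WT and 7 in Ts1Cje, with medians of 0.29 and 0.37. Nek2, a kinase that helps to part the centrosomes, rose by 0.29 ± 0.06 (limma adjusted p = 0.00312) and 0.41 ± 0.06 (9.8e-05). It read 7.94, 7.88, 7.84, 7.96 and 7.78 in WT on plain chow and 8.0, 8.17, 8.29, 8.22 and 8.16 on apigenin. In Ts1Cje it read 7.85, 7.88, 7.95, 7.78 and 7.77, against 8.39, 8.12, 8.26, 8.37 and 8.16, and neither genotype showed overlap. Bub1b, the checkpoint protein BubR1, rose by 0.32 ± 0.06 and 0.43 ± 0.06. Its partner Bub1 had larger differences with more spread, 0.49 ± 0.09 and 0.45 ± 0.09. Plk1 and Aurka, kinases of centrosome maturation and spindle assembly, rose least of those that passed in both, at 0.24 ± 0.07 and 0.25 ± 0.06 in WT and 0.25 ± 0.07 and 0.23 ± 0.06 in Ts1Cje.

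Mad2l1, which makes the checkpoint's Mad2 protein, did not pass in WT, at 0.24 ± 0.09 (limma adjusted p = 0.089), and rose by 0.34 ± 0.09 in Ts1Cje (0.0106). Its WT values were 8.61, 9.14, 8.85, 9.03 and 9.02 on plain chow, against 9.21, 9.09, 9.23, 9.11 and 9.20 on apigenin. A single plain-chow embryo, at 9.14, lay within the apigenin range, and replicate 1 was far below the rest. In Ts1Cje the values were 8.66, 9.01, 9.02, 8.98 and 8.76, against 9.30, 9.05, 9.36, 9.13 and 9.28, with no overlap.

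All 4 genes of the chromosomal passenger complex, which corrects faulty attachments and later sits at the cleavage site, rose in both genotypes, with medians of 0.31 and 0.32. Birc5, its survivin subunit, rose by 0.35 ± 0.07 in WT (limma adjusted p = 0.00181) and 0.45 ± 0.07 in Ts1Cje (0.00012). Aurkb, its kinase, rose by 0.25 ± 0.06 and 0.30 ± 0.06, and the chow groups did not overlap for either gene in either genotype. Incenp, the scaffold, rose by 0.28 ± 0.06 and 0.26 ± 0.06, and Cdca8, the borealin subunit, by 0.34 ± 0.08 and 0.33 ± 0.08.

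The 7 kinetochore genes rose in both genotypes, with medians of 0.35 and 0.40. Cenpa, the histone variant that marks centromeres, read 8.83, 8.79, 8.89, 8.73 and 8.80 in WT on plain chow and 9.26, 9.14, 9.23, 9.21 and 9.12 on apigenin. In Ts1Cje it read 8.67, 8.85, 8.81, 8.74 and 8.67, against 9.32, 9.08, 9.27, 9.19 and 9.18. The gap between the chow groups was wide beside the spread within them, with differences of 0.38 ± 0.05 (limma adjusted p = 8.7e-05) and 0.46 ± 0.05 (7.4e-06). The 4 subunits of the Ndc80 complex, which grips microtubules, rose by 0.33 ± 0.08 (Ndc80), 0.27 ± 0.06 (Nuf2), 0.27 ± 0.05 (Spc24) and 0.36 ± 0.09 (Spc25) in WT. In Ts1Cje they rose by 0.38 ± 0.08, 0.28 ± 0.06, 0.40 ± 0.05 and 0.45 ± 0.09. Cenpe, a kinetochore motor, rose by 0.41 ± 0.09 and 0.44 ± 0.09, and Cenpf by 0.35 ± 0.07 in both.

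The 12 spindle genes rose in both genotypes, with medians of 0.39 and 0.42. Kif11, the motor that pushes the spindle poles apart, read 9.22, 9.53, 9.51, 9.41 and 9.39 in WT on plain chow and 9.74, 9.83, 9.83, 9.78 and 9.85 on apigenin. The Ts1Cje values were 9.21, 9.49, 9.50, 9.36 and 9.25, against 9.87, 9.83, 9.87, 9.81 and 9.80. The apigenin embryos were closely grouped and none reached down to plain-chow values, with differences of 0.39 ± 0.06 (limma adjusted p = 0.00026) and 0.47 ± 0.06 (2.5e-05). Kif2c, a microtubule depolymerase, rose by 0.44 ± 0.08 and 0.53 ± 0.08, and Dlgap5, a spindle-stabilising protein, by 0.45 ± 0.07 in both. Tpx2, which activates Aurora A on the spindle, rose by 0.39 ± 0.06 and 0.41 ± 0.06. Kif4, Kif15, Kif18a, Kif22, Nusap1, Hmmr, Ckap2 and Ckap2l rose by 0.27 to 0.43 in WT and by 0.28 to 0.49 in Ts1Cje.

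Hmmr, which localises spindle assembly factors, had the largest standard error of the 53 genes, 0.11. Its WT plain-chow values were 7.51, 8.20, 8.14, 8.18 and 8.14, and those on apigenin 8.38, 8.40, 8.45, 8.38 and 8.48. The low replicate 1 widened the error, while the other 4 plain-chow embryos also lay below every apigenin embryo. The differences were 0.39 (limma adjusted p = 0.0238) in WT and 0.49 (0.00346) in Ts1Cje.

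All 7 cytokinesis genes rose in both genotypes, with medians of 0.38 and 0.43, and Ect2 had the largest difference of the 53 genes in each. Ect2 activates RhoA to build the contractile ring. It read 8.92, 9.02, 8.97, 9.06 and 9.09 in WT on plain chow and 9.42, 9.54, 9.57, 9.45 and 9.66 on apigenin, and in Ts1Cje 8.85, 9.00, 9.15, 9.04 and 8.81, against 9.66, 9.52, 9.58, 9.42 and 9.52. Those are folds of 1.43 and 1.48, or 0.51 ± 0.06 (limma adjusted p = 6.7e-05) and 0.57 ± 0.06 (9.1e-06), with no overlap. Racgap1 and Kif23, the partners that form centralspindlin and recruit Ect2, rose by 0.41 ± 0.06 and 0.37 ± 0.07 in WT and by 0.44 ± 0.06 and 0.43 ± 0.07 in Ts1Cje. Prc1, which bundles the midzone microtubules, rose by 0.35 ± 0.07 and 0.50 ± 0.07. Anln, Kif20a and Kif20b rose by 0.29 to 0.40 in WT and by 0.32 to 0.39 in Ts1Cje.

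Of 4 genes grouped here under the anaphase-promoting complex and mitotic exit, 4 rose in WT and 3 in Ts1Cje. Their medians were 0.32 and 0.29. Cdc20, which activates the complex, rose by 0.36 ± 0.08 (limma adjusted p = 0.00331) and 0.40 ± 0.08 (0.00106). In Ts1Cje its groups overlapped, with 8.10, 8.33, 8.02, 7.78 and 7.89 on plain chow, against 8.54, 8.32, 8.52, 8.43 and 8.31 on apigenin. The plain-chow value of 8.33 lay just above the apigenin values of 8.32 and 8.31. Ube2c, the ubiquitin-conjugating enzyme of the complex, rose by 0.31 ± 0.06 and 0.30 ± 0.06. Cdca3, which is not a subunit of the complex, rose by 0.32 ± 0.08 and 0.28 ± 0.08. Espl1, separase, which cuts cohesin, rose by 0.30 ± 0.06 in WT (limma adjusted p = 0.00277) and did not pass in Ts1Cje, at 0.16 ± 0.06 (0.0709). Its Ts1Cje values were nonetheless apart, 7.65, 7.59, 7.65, 7.59 and 7.53 on plain chow, against 7.82, 7.73, 7.80, 7.74 and 7.74 on apigenin.

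The 7 genes of chromosome structure rose in both genotypes, with medians of 0.30 and 0.32. Top2a, the topoisomerase that untangles sister chromatids, read 9.81, 10.04, 10.05, 10.02 and 10.05 in WT on plain chow and 10.28, 10.43, 10.50, 10.37 and 10.43 on apigenin. In Ts1Cje it read 9.75, 10.00, 10.19, 9.93 and 9.75, against 10.50, 10.36, 10.55, 10.33 and 10.39. Again no value was shared between the chows, and Top2a rose by 0.41 ± 0.07 (limma adjusted p = 0.00113) and 0.50 ± 0.07 (0.00012). Cdca2, which directs a phosphatase to chromatin at mitotic exit, rose by 0.45 ± 0.07 and 0.49 ± 0.07. Of the condensin subunits, Ncapg rose by 0.49 ± 0.08 and 0.52 ± 0.08, and Smc2, Smc4 and Ncapd2 by 0.26 to 0.28 and 0.30 to 0.32. Mki67, the proliferation antigen Ki-67, rose by 0.30 ± 0.07 and 0.27 ± 0.07.

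**Figure D2:**
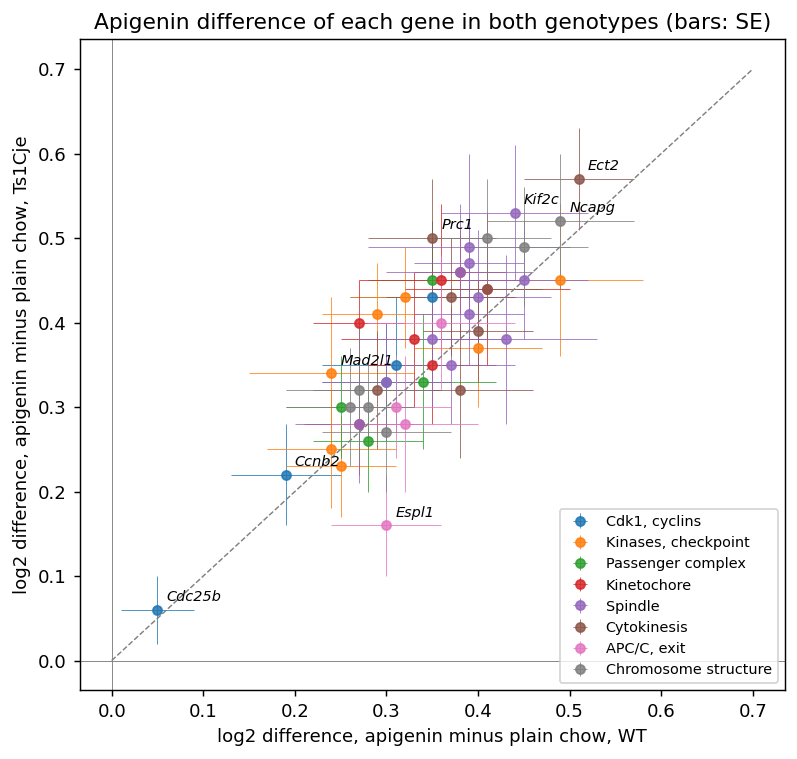
Each point is 1 of the 53 genes, with its log2 difference between apigenin and plain chow in WT on the x axis and in Ts1Cje on the y axis; bars are SE and the dashed line marks equal differences. Points run along the line from Cdc25b at 0.05 and 0.06 to Ect2 at 0.51 and 0.57, and Espl1, at 0.30 and 0.16, lies below it.

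Genotype was compared on each chow to ask whether the trisomy altered these genes. On plain chow 0 of 53 passed (limma), with 1 at an unadjusted p under 0.05, where 0.311% of all genes passed in either direction. Ts1Cje was lower for 45 and higher for 8, with a median of -0.03 and a range of -0.11 to 0.12. The size and sign of this median rested on few embryos. Without WT replicate 1 it was -0.07, with the same sign and larger. Without Ts1Cje replicate 5 it was 0.01 and without the 3 low embryos 0.02, so its sign turned. The 5 with the smallest p were Spc24 (-0.11, 95% interval -0.21 to -0.01), Espl1 (0.12), Kif2c (-0.11), Cenpa (-0.06) and Cdc25c (-0.11). Spc24 had an unadjusted p of 0.0309 and a limma adjusted p of 0.687. On apigenin 0 of 53 passed (limma), with 0 at an unadjusted p under 0.05, where again 0.311% of all genes passed. Ts1Cje was higher for 33 and lower for 20, with a median of 0.01. The 5 with the smallest p there were Nek2 (0.09), Prc1 (0.10), Hmmr (0.12), Spc25 (0.08) and Incenp (-0.04).

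The 95% intervals of the genotype differences ran from -0.29 to 0.31 over the 53 genes for plain chow, and for apigenin from -0.24 to 0.34. Within runs of neighbouring embryo numbers the sign was not steady: on plain chow the median was -0.12 in the run of numbers 87 to 94, with 3 of 53 genes higher in Ts1Cje, and 0.05 in the run above it, with 38 higher. On apigenin it was 0.05 in numbers 1 to 28 and -0.04 in numbers 55 to 59. The methods' t-test with Benjamini-Hochberg adjustment also called 0 genes on either chow. None of the 53 genes lies on chromosome 16 or 12.

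The interaction asks whether the apigenin difference itself depended on genotype. Here 0 of 53 genes passed (limma), with 0 at an unadjusted p under 0.05, and 0% of all genes passed. The difference was larger in Ts1Cje for 39 genes and larger in WT for 14, with a median interaction of 0.03 and a range of -0.13 to 0.15. Spc24 (0.13, 95% interval -0.01 to 0.27, unadjusted p = 0.0655), Espl1 (-0.13, -0.31 to 0.04), Prc1 (0.15, -0.05 to 0.35), Nek2 (0.12) and Bub1b (0.11) had the smallest p. Over the 53 genes the intervals ran from -0.36 to 0.43, so a dependence as large as the apigenin difference itself lies within some of them. Without the 3 low plain-chow embryos the median interaction was -0.02.

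Ts1Cje on apigenin was also set against WT on plain chow, a comparison that shares its arrays with those above. There 52 of 53 genes were higher and 1 did not pass (limma), where 8.19% of all genes were higher, with a median of 0.36.

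The apigenin difference was present across the runs of embryo numbers. In WT each apigenin run against each plain-chow run gave medians of 0.30, 0.37, 0.32 and 0.38, and in Ts1Cje 0.47, 0.37, 0.39 and 0.30, with all 53 genes higher on apigenin each time. With the run as a random block 51 genes rose in each genotype. All embryos of a run had the same chow, so this block cannot separate run from apigenin. The estimated correlation between embryos of the same run was -0.05, so the block changed the fit little. No conclusion about runs is drawn from its count. With the Y-linked level as a covariate 51 genes also rose in each genotype. The counts over all genes under the block and the covariate are not given here.

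Of the other genes of G2 and mitosis, 97 were listed by symbol and 92 measured. In WT 46 of 92 rose and 0 fell, with a median of 0.21, and in Ts1Cje 49 rose and 2 fell, with a median of 0.20. Of all 20239 genes, 1308 rose and 1184 fell in WT, and 1638 rose and 1653 fell in Ts1Cje. Falls were thus rarer in this list than among all genes. Kntc1 (0.48 and 0.46 in WT and Ts1Cje) and Zwilch (0.39 and 0.55), which carry dynein to the kinetochore, were among those that rose. So were Nsl1 (0.35 and 0.45) and Ska2 (0.27 and 0.30), of the outer kinetochore, Arhgap11a (0.44 and 0.43) and Cep55 (0.44 and 0.49), which acts at the last cut between daughter cells. The 2 that fell in Ts1Cje were Cit, citron kinase, at -0.17 (limma adjusted p = 0.00724), and Anapc10, a subunit of the anaphase-promoting complex, at -0.16 (0.0364). In WT they were at -0.07 and -0.04 and did not pass. Anapc11 (-0.12 and -0.13), Anapc5 (-0.08 and 0.00) and Kpna2 (-0.05 and -0.21) were the other lowest and did not pass in either.

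By genotype 1 of the 92 passed on each chow, Mis18a, which loads Cenpa at centromeres and lies on chromosome 16, part of which is trisomic. It read 8.03, 8.09, 8.21, 8.22 and 8.13 in WT and 8.37, 8.53, 8.68, 8.45 and 8.43 in Ts1Cje on plain chow. On apigenin the values were 8.17, 8.34, 8.43, 8.32 and 8.50, against 8.90, 8.87, 8.92, 8.75 and 8.90. The genotypes were thus apart on both chows, by 0.35 ± 0.06 (limma adjusted p = 0.00686) and 0.52 ± 0.06 (5.8e-05), and the call on plain chow was lost when only those groups were modelled.

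Genes of the earlier G1/S phase and DNA replication rose too: of 45 measured, 26 rose in WT and 31 in Ts1Cje and 0 fell, with medians of 0.20 and 0.21. Over all 20239 genes, 1308 rose and 1184 fell in WT, and 1638 rose and 1653 fell in Ts1Cje. Progenitor markers were mixed. Of 18 intermediate progenitor genes, 10 rose and 1 fell in WT and 13 rose and 1 fell in Ts1Cje, and their mean level was 8.49 to 8.65 on plain chow and 8.77 to 8.91 on apigenin. Eomes, their defining transcription factor, rose by 0.32 ± 0.08 and 0.40 ± 0.08. Kif26b, a kinesin family gene, was the 1 that fell, at -0.34 ± 0.05 and -0.35 ± 0.05. Of 26 radial glia genes, 9 rose, 2 fell and 15 did not pass in WT, and 13 rose, 2 fell and 11 did not pass in Ts1Cje. Sox2 rose by 0.33 ± 0.05 and 0.40 ± 0.05, and Pax6 by 0.38 ± 0.07 and 0.42 ± 0.07. The 2 that fell were the matrix genes Tnc, at -0.42 ± 0.06 and -0.44 ± 0.06, and Bcan, at -0.21 ± 0.05 and -0.23 ± 0.05. Kif26b, Tnc and Bcan are named after their values were seen, as the members that fell. Falls in the intermediate progenitor and radial glia lists were about as frequent as among all genes. Of the 8 forebrain markers, 2 rose in WT and 5 in Ts1Cje, and 0 fell; Eomes is among them. Of 36 neuronal and synaptic genes, 2 rose and 17 fell in WT and 5 rose and 19 fell in Ts1Cje, and their mean level was 10.62 to 10.68 on plain chow and 10.47 to 10.55 on apigenin. Tubb3, a tubulin of neurons, was at -0.10 and -0.07 and did not pass.

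Other cell types that the tissue could hold were measured beside this. Hbb-y, an embryonic beta-globin of red cells, was 6.32 to 7.67 on plain chow, against 9.16 to 10.32 on apigenin, while 2 of 11 erythroid genes rose in each genotype and 0 fell, and their mean level was 7.07 to 7.28 and 7.43 to 7.68. For endothelium and pericytes 0 of 17 rose, with 1 lower in WT and 4 in Ts1Cje. Of all 20239 genes, 1184 fell in WT and 1653 in Ts1Cje. For meninges 0 of 13 rose and 1 fell in each genotype, and for microglia 0 of 13 changed in either (limma, with 1 and 3 at an unadjusted p under 0.05). The part of progenitor, forebrain, neuronal and red cell RNA in the differences of the mitotic genes was not tested. The labels used here give embryonic day 15 for every embryo and no finer stage. A difference in maturity between the chow groups cannot be told apart from chow, and was not tested.

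**Figure D3:**
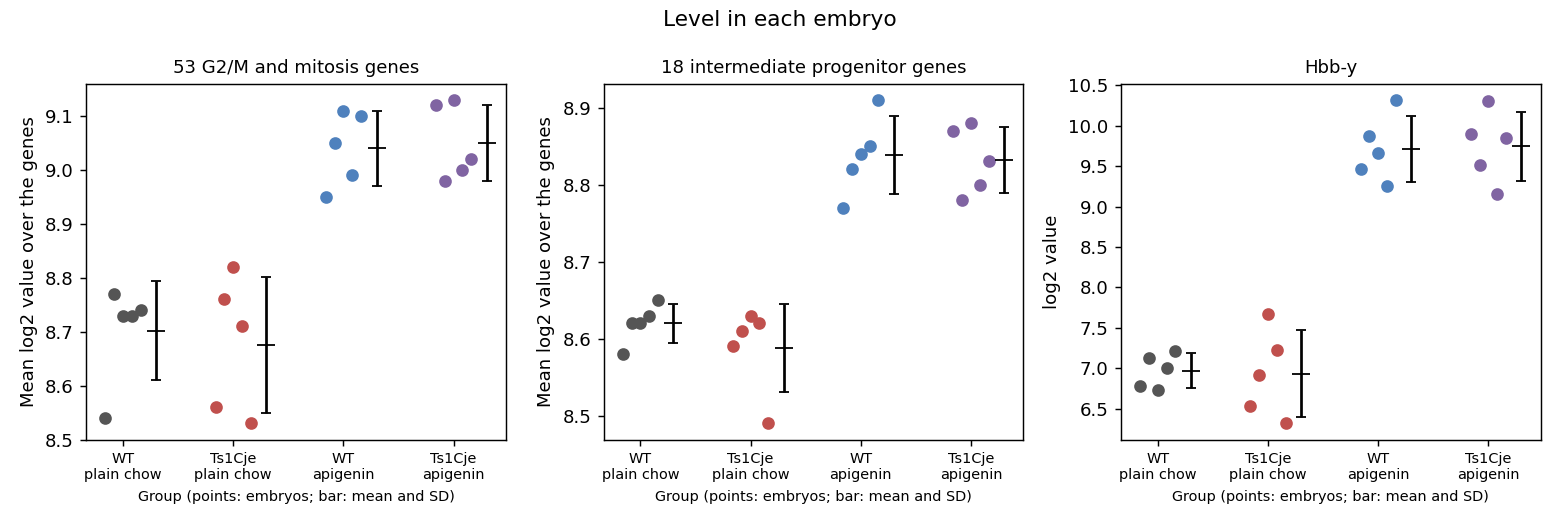
Points are embryos in each of the 4 groups, bars the mean and SD, and the y axes log2 values: the mean of the 53 G2/M and mitosis genes, the mean of 18 intermediate progenitor genes, and Hbb-y. In each panel all 10 apigenin embryos lie above all 10 plain-chow embryos, and WT replicate 1 and Ts1Cje replicates 1 and 5 are the low plain-chow points of the first panel.

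**Figure D4:**
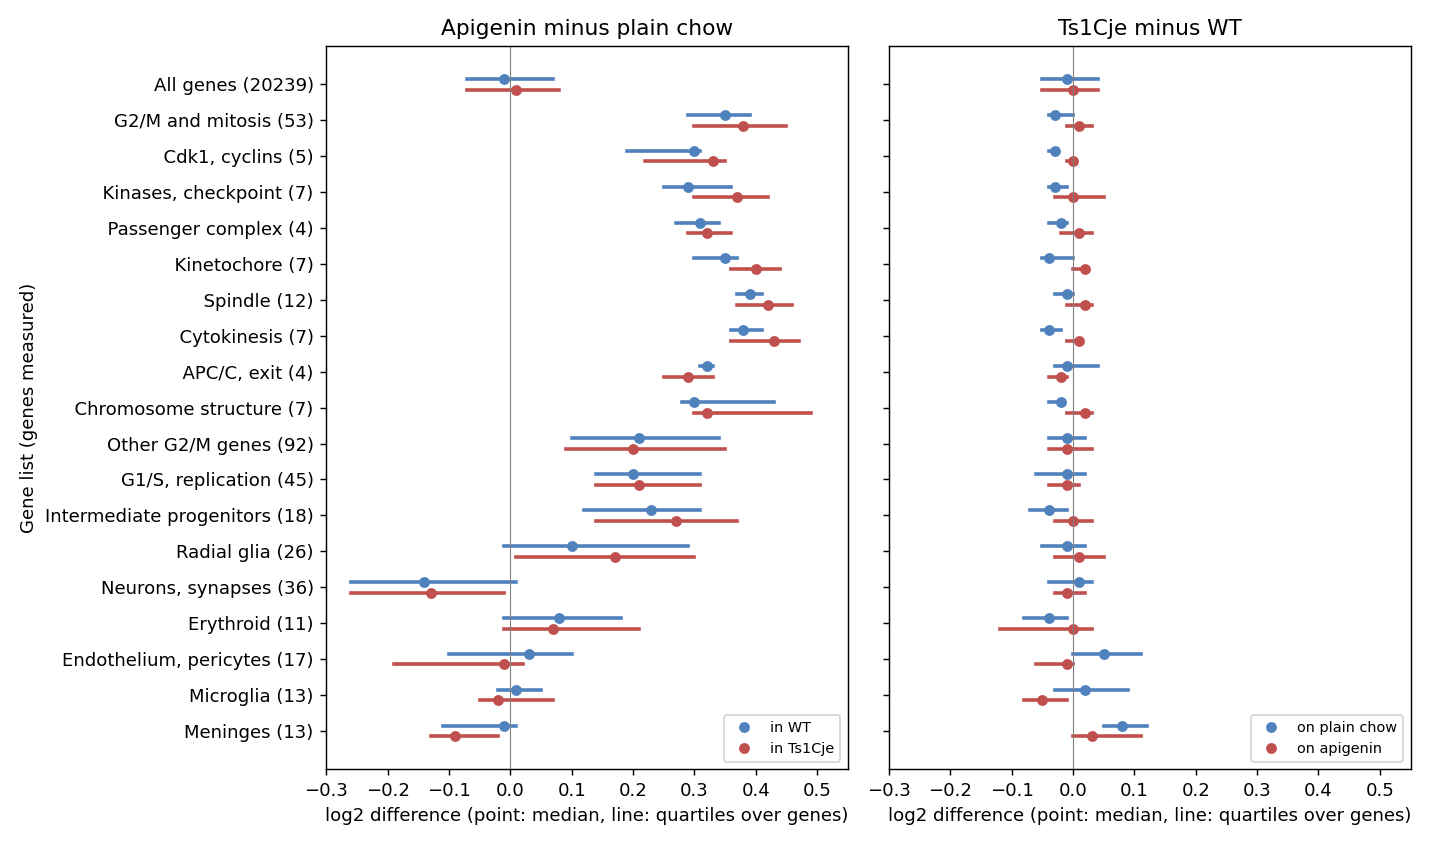
Points are the median log2 difference of each gene list and lines its quartiles over genes, for apigenin minus plain chow in each genotype (left) and Ts1Cje minus WT on each chow (right); numbers in brackets are genes measured. On the left the G2/M and mitosis genes lie at 0.35 and 0.38 and the neuronal list at -0.14 and -0.13; on the right the G2/M and mitosis genes lie at -0.03 and 0.01.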

How the data were processed

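RNA of 20 embryonic forebrains was analysed, 1 per array. Each probe set has a deposited log2 value, which the authors obtained with RMA according to the submitters' processing notes. The sources used here do not state the RMA version, chip definition or build. RMA makes the arrays' distributions alike, so overall differences between arrays were removed before deposit, and it compresses low values, which understates differences of dim genes.

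Of 21225 probe sets, 20239 were paired with 1 gene symbol by Entrez number and 986 are unnamed here; 0 symbols needed an update. The table held 0 columns from other series. Groups came from the genotype and treatment labels.

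limma 3.58.1 in R 4.3.3 fitted 1 mean per group over all 20 arrays (lmFit, eBayes; 16 residual degrees of freedom), with two-sided tests adjusted over all 20239 genes (Benjamini-Hochberg) at 0.05. SE are those of the fit. The procedure was tested on simulated data.

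The members and the gene lists were chosen with earlier results of these data known. Genes with full statistics were, per function, the 2 with the smallest p by apigenin, and every member that missed the threshold. They were also the 5 with the smallest p by genotype and interaction, and of the other G2/M genes the 4 with the smallest p in each direction. Further members were named to account for the set. The 6 printed promoters are examples picked outside this rule.

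Alternatives were the study's own unpaired t-test, at p under 0.001 or a Benjamini-Hochberg adjusted p under 0.05, and the limma fit at the study's false discovery rate of 10%. The t-test was not run at that 10% rate. Others were models of only the groups compared, removal of the dimmest 20% or 40% of genes, quantile normalization once more, median centring, array weights and a trended robust prior. Runs of embryo numbers were a random block for the apigenin comparisons and for Ts1Cje on apigenin against WT on plain chow. All embryos of a run had the same chow, so this block cannot separate run from chow. For genotype and interaction the runs were fixed covariates. Y-linked signal was used as a covariate, and each array was left out in turn.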

Additional observations from a re-analysis of the deposited data

Results flagged for a closer look

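In groups of 5 embryos, the highest or lowest value stood far from the others in 16 of 248 groups checked, by Dixon's criterion at 95%; chance gives about 1 in 20. Of these 16, 14 concern WT replicate 1 on plain chow, which was low. Its values were 8.69 for Cenpf (the others 8.96 to 8.98), 8.90 for Nuf2, 8.01 for Kif15, 9.05 for Tpx2, 7.51 for Hmmr, 8.25 for Anln, 8.36 for Kif20a, 8.60 for Cdca3 and 9.81 for Top2a. The same embryo was low in the mean of all 53 genes (8.54), of the spindle genes (8.31), of the cytokinesis genes (8.50), of the anaphase-promoting complex and exit genes (8.42) and of the chromosome structure genes (9.19). These share genes and are not independent. Plk1 was low in Ts1Cje replicate 5 on plain chow (8.79, the others 8.99 to 9.07). The mean of the passenger complex genes was low in WT replicate 1 on apigenin (8.73, the others 8.88 to 8.94). All are log2 values, and their causes were not tested.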

How the results depend on the processing

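The random block of embryo-number runs cannot separate run from chow, so its count is descriptive only. The counts of G2/M and mitosis genes that rose with apigenin kept to 42 to 52 of 53 in each genotype under the other tests, filters, scalings, blocks and covariates, with 1 exception. This was the methods' t-test at an unadjusted p under 0.001. It called 24 in WT, where 420 of all 20239 genes rose, and 18 in Ts1Cje, where 626 rose. Of the other G2/M genes it called 20 in WT and 27 in Ts1Cje. For Ts1Cje on apigenin against WT on plain chow it called 28, and the count over all genes is not given here. With Benjamini-Hochberg adjustment the methods' t-test called 42 and 47, where 814 and 1570 of all genes rose. Models of only the groups compared called 46 and 52, where 772 and 1596 of all genes rose. Except for the repeat without the 3 low plain-chow embryos, the other alternatives have no count over all genes here. The genotype and interaction counts were 0 under every alternative run; the t-tests and the models of only the groups compared have no interaction. For the other G2/M genes the count by genotype on plain chow was 0 with only the groups compared and 0 with the methods' t-test and Benjamini-Hochberg adjustment, against 1. Leaving out 1 array gave 47 to 51 in WT, 49 to 52 in Ts1Cje, 45 to 52 for Ts1Cje on apigenin against WT on plain chow, 0 to 0 for both genotype comparisons and the interaction, 37 to 49 and 40 to 52 for the other G2/M genes by apigenin, and 1 to 1 by genotype on each chow. The calls of single genes were followed over 68 pairs of named gene and comparison. Leaving out 1 array lost a call 6 times, gained 1 in 2 cases and left 1352 unchanged. The other alternatives lost a call 17 times, gained 1 in 12 cases and left 838 unchanged. The sign of 1 named gene turned: Cdc25c by genotype on plain chow, -0.11, was 0.01 without the 3 low plain-chow embryos, a repeat added after the data were seen. Promoters with TTTGAA numbered 18 with only the bases before the start, against 34 with the whole window, TTTAAA 5 against 8, either form 22 against 36, and either form with CCAAT 19 against 30. No paired analysis was possible because the labels give the groups no shared replicate numbers. The number of arrays limits the precision of the small genotype differences.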

Other observations

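The erythroid genes did not move as 1 set. Hbb-y rose by 2.75 ± 0.24 in WT and 2.81 ± 0.24 in Ts1Cje (log2, SE, n = 5 per group, limma adjusted p = 2.6e-06 and 1.2e-06), and Hba-x, the embryonic alpha-type globin, by 0.70 and 0.80. The globins Hbb-bh1 (0.04 and 0.19) and Hbb-b1 (0.12 and -0.03), Alas2, which starts haem synthesis (-0.18 and -0.24), and Klf1, an erythroid transcription factor (0.01 and 0.12), did not pass in either genotype. These genes, other than Hbb-y, were chosen after their values were seen.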
